A study of Mus musculus with 2 samples.

Results

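The miRNAs described here are 8 mature sequences best known from neurons and neuroendocrine cells, measured in exosomes that mouse macrophages release. They were chosen by name: both arms of miR-9, the paralogues miR-7a-5p and miR-7b-5p, and miR-124-3p, miR-128-3p, miR-129-5p and miR-138-5p, with the files' mouse prefix mmu- (mmu-miR-9-5p, mmu-miR-9-3p, mmu-miR-7a-5p, mmu-miR-7b-5p, mmu-miR-124-3p, mmu-miR-128-3p, mmu-miR-129-5p, mmu-miR-138-5p) left out below. The 8 are among 1976 mature miRNAs listed in each of 2 libraries. The choice was made with their values in these libraries known, so those values are given as a description and no test is applied to them.

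Both libraries came from bone marrow-derived macrophages of C57BL/6 mice aged 5 to 6 weeks, with no genetic change named in the labels. Marrow cells were kept for 7 days with M-CSF, the macrophage growth factor, at 10 ng/mL. They then received a cytokine at 20 ng/mL for 1 day, IFN-γ for the M1 group or IL-4 for the M2 group. Both groups spent the next 2 days without serum, and the vesicles in that medium were collected by ultracentrifugation, so the libraries describe released and not cellular RNA. Each group has 1 library, and no unpolarised sample is analysed here. No value has a replicate error, no difference could be tested, and each statement below compares 2 libraries. How many mice or cultures went into a library is not given in the sources used here. A miRNA higher in 1 library may be on more vesicles or at more copies per vesicle, and these cannot be told apart.

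A miRNA is a short RNA that guides an Argonaute protein to messenger RNAs, mainly through its seed, bases 2 to 8 counted from the 5′ end, and lowers their output. It is cut from a hairpin precursor whose arms, 5p and 3p, can each give a mature miRNA, and usually 1 arm is kept while the other is degraded. miR-9 and miR-124 are hallmarks of neural progenitors and neurons and act against non-neuronal gene programmes. miR-7 is abundant in brain and pancreatic islets, and in brain it is bound by the circular RNA Cdr1as. Several of these miRNAs are also known outside the nervous system: Toll-like receptor signalling induces miR-9 in monocytes, where it targets Nfkb1, and IL-4 has been tied to miR-124 in macrophages and microglia.

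The RefSeq table on GRCm38.p6 held 7 of the 8 sequences, which are shown with the seed in capitals because the groups below follow it.

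miR-9-5p: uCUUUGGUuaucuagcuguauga
miR-9-3p: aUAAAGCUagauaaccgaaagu
miR-7a-5p: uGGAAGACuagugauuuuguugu
miR-7b-5p: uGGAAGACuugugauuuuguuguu
miR-128-3p: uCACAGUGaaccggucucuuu
miR-129-5p: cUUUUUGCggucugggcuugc
miR-138-5p: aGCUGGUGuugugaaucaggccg

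miR-7a-5p and miR-7b-5p share 1 seed, and each other member has a seed of its own. The miR-7 sequences differ by the substitution A10U, counted from the 5′ end with the miR-7a base first, and by length, 23 bases against 24. Reads of these paralogues can be split by the counting, so their single values are uncertain. The same holds for hairpin copies: miR-9-5p and miR-9-3p are made from 3 hairpins each, and the files give 1 value per mature name.

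The files hold log2(level + 1), and a level below is 2 to the power of that value, minus 1, in the authors' units. At low levels the values fall on even steps, taken as the worth of 1 read, which is 0.80 units in the M1 library and 1.22 in the M2 library. Reads given below for low values rest on these steps, are approximate, and reach up to 40 reads. A value of 0 allows up to 3 reads, which is 2.40 units in the M1 library and 3.67 units in the M2 library, and this limit covers counting error alone. The levels of all miRNAs summed to 686353 units in the M1 library and 734637 in the M2 library. Only miRNAs at 10 units or more in either library were compared, and a miRNA counted as higher if the log2 ratio, M1 minus M2, was at least 1 in size. That ratio is on the log2(level + 1) scale, which understates differences at low levels.

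Myeloid miRNAs were present in both libraries, and neuronal miR-124 was listed at 0. All 9 myeloid miRNAs looked up passed the minimum, and together they made up 21.9% of the level in M1 exosomes against 13.7% in M2 exosomes, most of it miR-146a-5p and miR-21a-5p. Of 10 neural miRNAs looked up, 4 were listed at 0 in both libraries: miR-124-3p, its other arm miR-124-5p, miR-137-3p and miR-153-3p. The rest, miR-9-5p, miR-9-3p, miR-218-5p, miR-128-3p, miR-129-5p and miR-138-5p, were above 0 in both. Of all 1976 listed miRNAs, 1229 were at 0 in both libraries, so nothing is read from the number of zeros. Together the 10 neural miRNAs summed to 474 units in the M1 library against 1558 in the M2 library. Of these sums miR-9-5p alone held 103 units in the M1 library and 1264 in the M2 library. The next largest, miR-128-3p, lay the other way, at 333 against 251 units. The 10 include members chosen with their values known, so nothing is read from the sum. The 8 members together made up 0.27% of the level in M1 exosomes against 0.72% in M2 exosomes. The name neuron-linked thus describes where these miRNAs are best known from, and the libraries do not carry the full neuronal set.

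Of the 8 members, 6 passed the minimum, miR-9-3p lay below it, and miR-124-3p was listed at 0. Among the 6, 4 exceeded 2-fold towards M2 exosomes, namely miR-9-5p, miR-7b-5p, miR-7a-5p and miR-138-5p. That call was made for 22.8% of all 337 miRNAs compared. The opposite call, at least 2-fold higher in M1 exosomes, was made for 1 member, miR-129-5p, and for 26.1% of all miRNAs compared, and miR-128-3p lay within 2-fold. The median log2 ratio of the 6 was -1.94, and that of all 337 was 0.04. The members' median was -1.33 with no minimum or with the minimum required in both libraries, and -1.28 with 10 units added to each level. Since members were picked with these ratios known, nothing is read from the counts. Summed over the 8, the level was 1870 units in the M1 library against 5254 in the M2 library, 2.81 times as high. Without miR-7a-5p, which made up 71.9% of that sum in the M1 library and 64.6% in the M2 library, it was 3.54 times as high. What was left, 525 units in the M1 library against 1858 in the M2 library, held 103 and 1264 units of miR-9-5p. The 3.54 therefore leans on that 1 member.

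**Figure D1:**
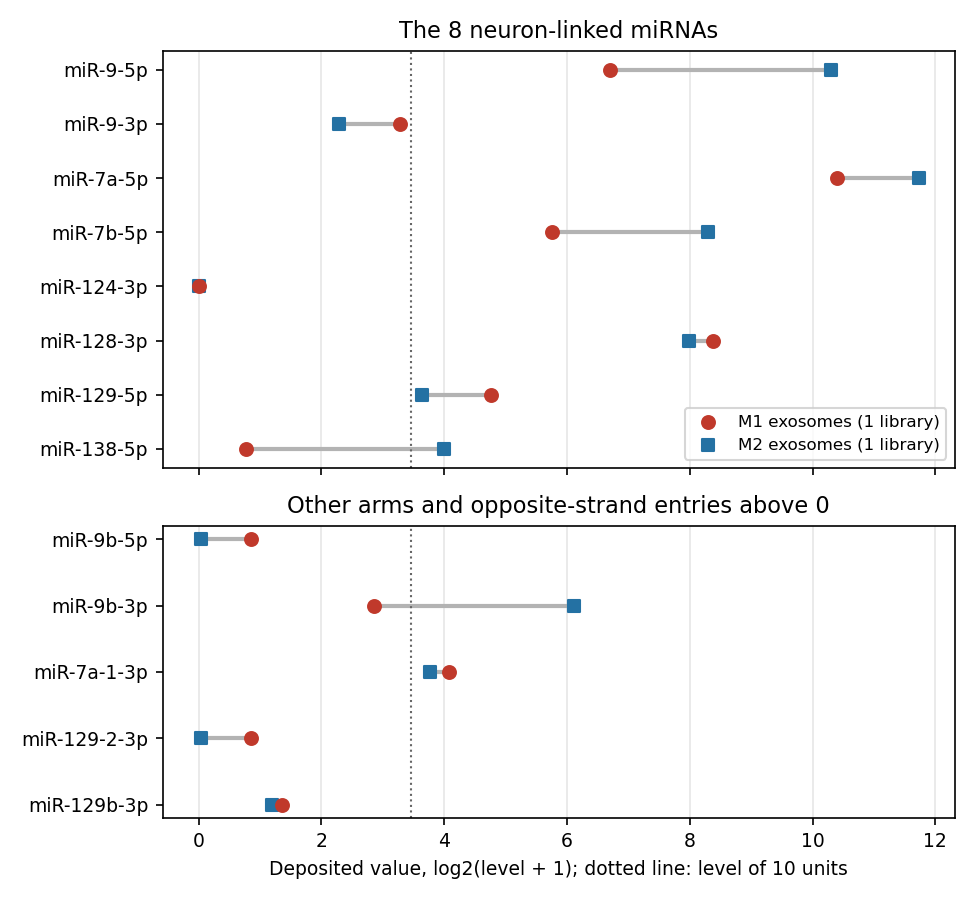
Deposited values, log2(level + 1), of the 8 miRNAs (upper panel) and of their other arms and opposite-strand entries above 0 (lower panel). Circles are the M1 exosome library, squares the M2 exosome library, and the dotted line marks 10 units. miR-9-5p runs from 6.70 to 10.30 while miR-9-3p lies the other way, at 3.28 in M1 exosomes and 2.28 in M2 exosomes.

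On the log2(level + 1) scale, miR-9-5p had the widest gap among the members. As a plain ratio of levels miR-138-5p lay further apart, at 21.5 times in M2 exosomes, but with near 1 read in M1 exosomes. The deposited value of miR-9-5p was 6.70 in M1 exosomes and 10.30 in M2 exosomes, a level of 103 units against 1264. It was the 147th most abundant miRNA in M1 exosomes and the 42nd in M2 exosomes. The log2 ratio of -3.61, a 12.2-fold difference, was 7th from the M2 end of the 337 miRNAs compared. Its levels lie above the range in which reads are given here, so it has no counting interval.

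miR-9-3p, the other arm of the same hairpins, lay the other way. It was at 3.28 in M1 exosomes and 2.28 in M2 exosomes, or 8.74 against 3.87 units, near 11 and 3 reads. The M2 level was thus 0.44 times the M1 level, with a 95% exact interval for counting error of 0.079 to 1.68, which includes equal levels. It stands just under the minimum of 10 units and exactly on the 2-fold line, at a log2 ratio of 1.00. The nearest member above the minimum was miR-138-5p, at 15 units in M2 exosomes.

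The arms can be seen in the Mir9-1 hairpin, shown with both mature arms in capitals because the libraries differ in how much of each they hold.

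Mir9-1: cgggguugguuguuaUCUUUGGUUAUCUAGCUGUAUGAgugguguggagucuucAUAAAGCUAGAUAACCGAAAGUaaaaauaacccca

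The level of the 5p arm was 11.8 times that of the 3p arm in M1 exosomes and 327 times in M2 exosomes. The counting error of the 3p reads alone gives 95% exact Poisson intervals of 6.57 to 23.6 and of 112 to 1584 for these ratios, at about 11 and 3 reads. The 3p arm made up 7.83% of the sum of both arms in M1 exosomes and 0.31% in M2 exosomes. Adding 10 units to each level gave ratios of 6.02 and 91.9. These ratios describe 1 library each, and miR-9-5p was chosen with its values known.

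A comparison over arms was added after these values were seen. In 91 pairs of mature arms, in which copies of a hairpin share 1 pair, the more abundant arm passed the minimum and the other reached the worth of 3 reads in a library. An arm whose hairpins differ in the other arm, such as miR-125b-5p or miR-16-5p, enters once for each of these. The arms' log2 ratios differed by at least 1 in 49.5% of these, and the median difference was -0.09. The major arm lay further towards M2 exosomes in 24 of them and towards M1 exosomes in 21. The miR-9 difference, -4.61, was the 1st of the 91 in the direction of M2 exosomes for the major arm. It contains the miR-9-5p ratio by which that miRNA was noticed, so its place is a description. miR-26b, at -4.57, was next to it, with its lower arm below 1 read in M2 exosomes. By size the miR-9 difference was the 2nd, after miR-322 at 4.71 in the other direction. The lower arm of miR-322 was listed at 0 in M1 exosomes. The low values look as if the normalization depended on level there, but the sources used here do not state how it was done. The part of that step in the arm differences was not tested.

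**Figure D2:**
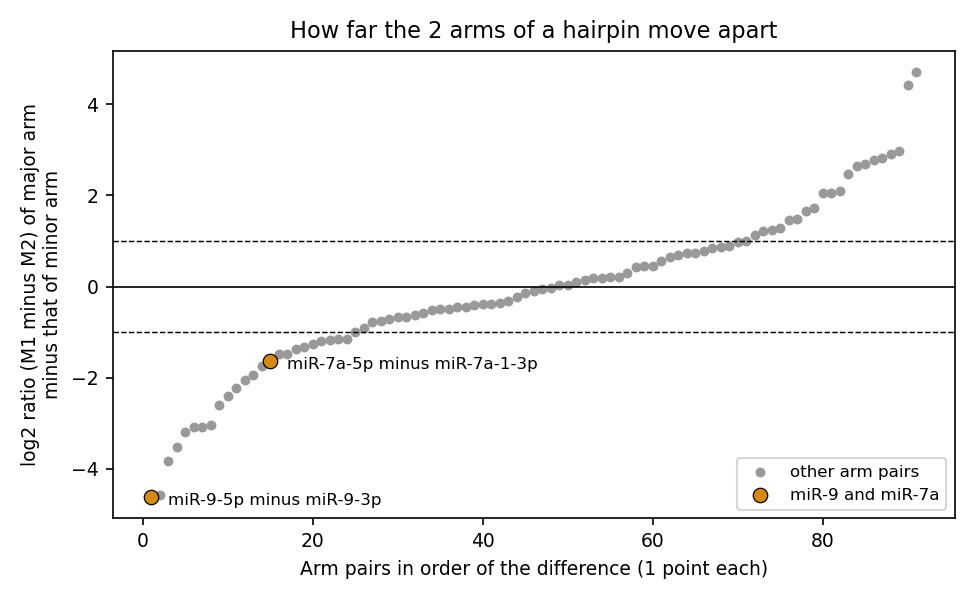
Each point is 1 of 91 pairs of mature arms, with the 3 miR-9 hairpins pooled in 1 point, ordered along the x axis. The y axis is the log2 ratio (M1 minus M2) of the more abundant arm minus that of the other arm, with dashed lines at 1 and -1. miR-9 lies lowest at -4.61 and miR-7a at -1.63.

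The 3 miR-9 hairpins lie on different chromosomes, each within a long noncoding RNA gene of GENCODE M21 (GRCm38). Mir9-1 is at chr3:88215598-88215686, in an intron of Gm3764. Mir9-2 is at chr13:83738814-83738885, in an exon of C130071C03Rik. Mir9-3 is at chr7:79505264-79505353, in an intron of Mir9-3hg. All 3 are on the plus strand, in the sense of the host gene, and the values do not say which copy gave the reads.

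The opposite strand of the same hairpins is annotated as miR-9b, which the files list separately. miR-9b-3p is the exact reverse complement of bases 1 to 21 of miR-9-5p. The pair is printed with those bases in capitals because reads of the 2 entries differ only by strand.

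miR-9-5p: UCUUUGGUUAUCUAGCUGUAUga
miR-9b-3p: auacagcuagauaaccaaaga

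miR-9b-3p was at 2.85 in M1 exosomes and 6.11 in M2 exosomes, or 6.23 against 68.1 units, the first near 8 reads. Its log2 ratio of -3.26 lay close to the -3.61 of miR-9-5p. miR-9b-3p passed the minimum through the M2 library alone, where it is high, so its ratio cannot serve as support for that of miR-9-5p. The level of miR-9-5p was 16.5 times that of miR-9b-3p in M1 exosomes and 18.6 times in M2 exosomes. miR-9b-3p thus made up 5.71% and 5.11% of the pair. The 2 entries have separate values, but the use of strand in the counting is not given in the sources used here. Whether reads of 1 entry were counted for the other cannot be told, so their ratios may be 1 observation. The entry opposite miR-9-3p, miR-9b-5p, held near 1 read in M1 exosomes and a value below 1 read in M2 exosomes.

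miR-7a-5p was the most abundant member in both libraries. Its deposited value was 10.39 in M1 exosomes and 11.73 in M2 exosomes, a level of 1346 units against 3396. That placed it 49th and 29th among all listed miRNAs. The log2 ratio of -1.33, or 2.52-fold, was the one nearest to the 2-fold line among the 4 members higher in M2 exosomes.

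miR-7b-5p was lower in level and further apart. It was at 5.75 in M1 exosomes and 8.29 in M2 exosomes, or 52.9 against 312 units, a log2 ratio of -2.54 and 5.80-fold. It made up 3.78% of the sum of both miR-7 guides in M1 exosomes and 8.41% in M2 exosomes. The summed miR-7 level, which does not depend on how reads were split between the paralogues, was 1398 units in the M1 library against 3708 in the M2 library. Its log2 ratio was -1.41. The sum therefore followed miR-7a-5p, and the shared seed had 2.65 times the level in M2 exosomes.

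The 3p arms of the miR-7 hairpins, unlike the guides, differ between copies. miR-7a-5p is made from 2 hairpins. Mir7-1 is at chr13:58392779-58392886 on the minus strand, in an intron of Hnrnpk, a broadly expressed gene for an RNA-binding protein. Mir7-2 is at chr7:78888277-78888373, between annotated genes, as is Mir7b at chr17:56242988-56243098. Mir7-1 is shown with both arms in capitals because it was the 1 miR-7 hairpin with a 3p arm above 0.

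Mir7-1: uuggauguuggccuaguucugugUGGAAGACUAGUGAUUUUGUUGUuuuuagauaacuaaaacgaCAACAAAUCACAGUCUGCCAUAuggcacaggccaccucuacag

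miR-7a-1-3p was at 4.07 in M1 exosomes and 3.77 in M2 exosomes, or 15.8 against 12.7 units, near 20 and 10 reads. The M2 level was 0.80 times the M1 level, with a counting interval of 0.33 to 1.79. miR-7a-2-3p and miR-7b-3p were listed at 0 in both libraries. The interval for miR-7a-1-3p includes equal levels, but it covers counting error alone and does not show that the levels are equal. The level of miR-7a-5p was 85.0 times that of miR-7a-1-3p in M1 exosomes and 268 times in M2 exosomes. The arms' log2 ratios differed by -1.63, the 15th of the 91 pairs in that direction. The share of miR-7a-5p that came from Mir7-2 is not known from these values.

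miR-128-3p, a brain-enriched miRNA that also limits neuronal excitability, was nearly level. It was at 8.38 in M1 exosomes and 7.98 in M2 exosomes, or 333 against 251 units, with a log2 ratio of 0.41. It was the 2nd most abundant member in M1 exosomes and the 4th in M2 exosomes, where both miR-9-5p and miR-7b-5p stood above it. Both hairpins lie in introns of protein-coding genes, in the sense of the host: Mir128-1 at chr1:128202361-128202430 in R3hdm1, and Mir128-2 at chr9:112118636-112118711 in Arpp21. The 5p arms miR-128-1-5p and miR-128-2-5p were listed at 0 in both libraries.

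miR-128-3p shares 6 letters of its seed region with 2 miRNAs that were far more abundant here. Bases 2 to 7 of miR-128-3p recur from base 3 of miR-27a-3p and miR-27b-3p, and they are in capitals below.

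miR-128-3p: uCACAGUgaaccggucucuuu
miR-27a-3p: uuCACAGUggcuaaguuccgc
miR-27b-3p: uuCACAGUggcuaaguucugc

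miR-27b-3p was at 15.55 in M1 exosomes and 14.96 in M2 exosomes, or 48041 against 31761 units. miR-27a-3p was at 13.59 and 13.16, or 12287 against 9139 units. Their log2 ratios of 0.60 and 0.43 lay within 2-fold, near the 0.41 of miR-128-3p. For miR-9-3p, the 6 letters recur in miR-340-5p, at 8.34 against 9.74 with a log2 ratio of -1.40. No other compared miRNA outside the list holds bases 2 to 7 of a member within its bases 1 to 9, among those with a sequence in the table.

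miR-129-5p, known from neurons and neuroendocrine cells, was the 1 member higher in M1 exosomes. It was at 4.76 in M1 exosomes and 3.64 in M2 exosomes, or 26.2 against 11.5 units, near 33 and 9 reads. The log2 ratio was 1.13. The M2 level was 0.44 times the M1 level. The counting interval, which is no test of the groups, was 0.18 to 0.94, with its upper end close to equal levels. miR-129-5p exceeded the 2-fold line by less than any other of the 5 members past it, and its ratio was 0.75 with 10 units added to each level.

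Its hairpins are Mir129-1 at chr6:29022619-29022691, in an exon of the long noncoding RNA gene Gm3294, and Mir129-2 at chr2:94241364-94241453 on the minus strand, in an intron of Mir670hg. In neither library was miR-129-1-3p above 0, and miR-129-2-3p held near 1 read in M1 exosomes and less than 1 read in M2 exosomes. The entry opposite miR-129-5p on the plus strand, miR-129b-3p, held near 2 reads in M1 exosomes and 1 in M2 exosomes, too few to set beside it.

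miR-138-5p, which restrains dendritic spine growth in neurons, was seen almost only in M2 exosomes. It was at 0.76 in M1 exosomes and 4.00 in M2 exosomes, or 0.70 against 15 units, near 1 read and 12 reads. The M2 level was 21.5 times the M1 level, with a counting interval of 3.18 to 918. The size of the difference is thus poorly known, and its log2 ratio of -3.24 was -1.22 with 10 units added to each level. It passed the minimum through the M2 library alone, where it is high, so the interval cannot serve as support for a difference. The hairpins Mir138-1, at chr9:122682876-122682974, and Mir138-2, at chr8:94324311-94324381, both overlap exons of noncoding transcripts, Gm47135 and C78859. Their 3p arms were listed at 0 in both libraries.

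miR-124-3p, one of the most abundant miRNAs of adult neurons, was not detected in either library. Its 3 hairpins, Mir124a-1 at chr14:64590657-64590741, Mir124a-2 at chr3:17795662-17795770 and Mir124a-3 at chr2:180894040-180894107, all lie in exons of long noncoding RNA genes. The order of levels within M1 exosomes was miR-7a-5p, miR-128-3p, miR-9-5p, miR-7b-5p, miR-129-5p, miR-9-3p and miR-138-5p. In M2 exosomes it was miR-7a-5p, miR-9-5p, miR-7b-5p, miR-128-3p, miR-138-5p, miR-129-5p and miR-9-3p. Mature lengths are alike, at 21 to 24 bases, and without replicates no spread tells which neighbours in these orders differ.

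**Figure D3:**
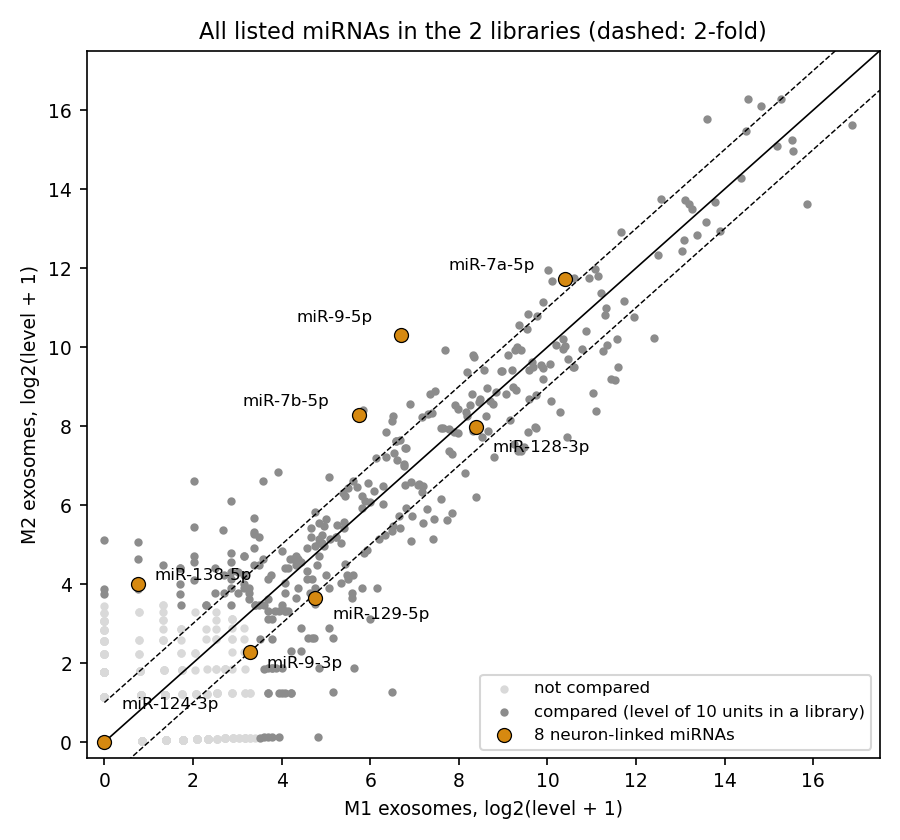
Each point is 1 of the 1976 listed miRNAs, with its deposited log2(level + 1) in M1 exosomes on the x axis and in M2 exosomes on the y axis. Dark points were compared, and dashed lines mark 2-fold. miR-9-5p, miR-7b-5p, miR-7a-5p and miR-138-5p lie above the upper dashed line, miR-129-5p lies below the lower one, miR-9-3p on it, and miR-124-3p at 0.

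Likeness was measured as the distance between the pairs of log2 values over the 2 libraries, with the 5 nearest compared miRNAs outside the list taken for each member. No miRNA was near miR-9-5p: the closest, miR-125b-5p, was at 7.70 in M1 exosomes and 9.93 in M2 exosomes, a distance of 1.07. The nearest to miR-7a-5p were miR-1839-5p at a distance of 0.20 and miR-378a-3p at 0.31. The nearest to miR-7b-5p was miR-378d, at 0.15, with 5.84 in M1 exosomes and 8.42 in M2 exosomes. miR-128-3p was nearest to miR-2137, at 0.12, and miR-138-5p to miR-133b-3p, also at 0.12. miR-6236 had the same 2 values as miR-129-5p. With 2 libraries, this likeness says only that levels are near each other.

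Most of the other neuron-linked miRNAs compared lay within 2-fold. Of 30 looked up, 29 were in the files, 16 of these were listed at 0 in both libraries, and 9 were compared. Of these 9, 7 lay within the 2-fold lines, 1 was past the line towards M1 exosomes and 1 towards M2 exosomes. Over all miRNAs, 1229 of 1976 were at 0 in both libraries, and 172 of the 337 compared lay within 2-fold. Of those 337, 26.1% were past the line towards M1 exosomes and 22.8% towards M2 exosomes. With 9 miRNAs compared, nothing is read from the counts. The median log2 ratio of the 9 was -0.29. miR-218-5p, a motor neuron miRNA, was the one higher in M2 exosomes, at 1.72 against 3.76, near 3 and 10 reads. The M2 level was 5.48 times the M1 level, with a counting interval of 1.41 to 31.0. It passed the minimum only through the M2 library, where it is high, so this interval cannot serve as support for a difference. miR-184-3p, best known from eye and brain, was the one higher in M1 exosomes, at 5.82 against 3.91 and 3.76-fold.

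The most abundant of these 9 were sensory and brain miRNAs within 2-fold. miR-183-5p was at 7.64 in M1 exosomes and 7.94 in M2 exosomes. miR-326-3p was at 7.20 and 6.48. miR-132-3p, which neuronal activity induces through CREB, had a log2 ratio of -0.24. miR-375-3p, the islet and neuroendocrine miRNA, stayed below the minimum at 1.73 in M1 exosomes and 2.86 in M2 exosomes. These values are near 3 and 5 reads, against a summed miR-7 level of 1398 units in the M1 library and 3708 in the M2 library. The oligodendrocyte miRNAs miR-219a-5p and miR-338-3p were at 0 in M1 exosomes, and miR-338-3p held near 1 read in M2 exosomes.

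**Figure D4:**
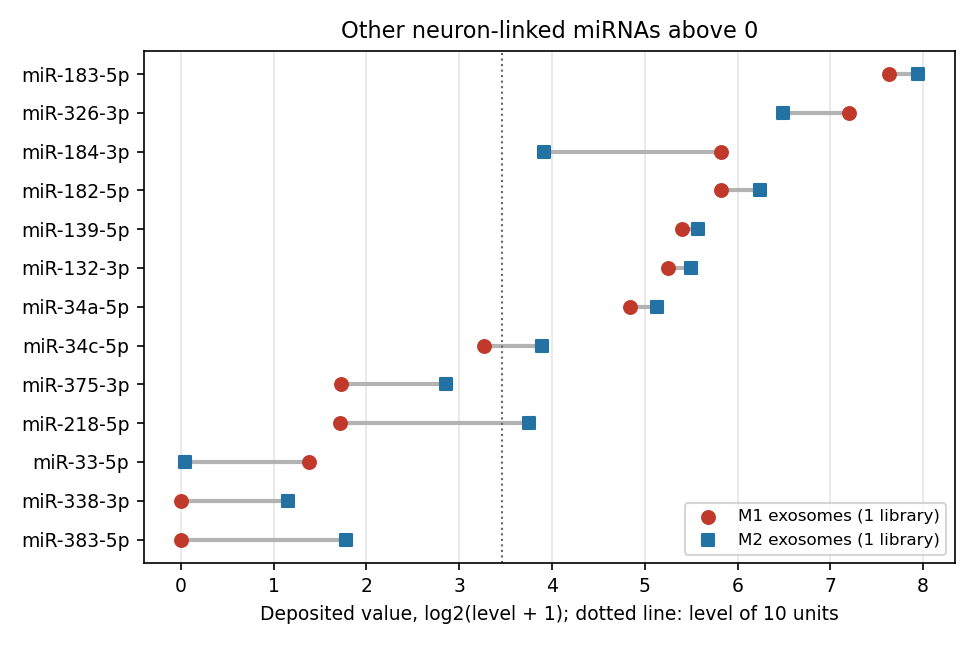
Deposited values, log2(level + 1), of the other neuron-linked miRNAs above 0 in a library, ordered by the M1 value, with circles for M1 exosomes, squares for M2 exosomes and a dotted line at 10 units. miR-184-3p, at 5.82 and 3.91, and miR-218-5p, at 1.72 and 3.76, are the 2 compared miRNAs past 2-fold.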

How the data were processed

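Small RNA from 2 exosome preparations was sequenced after NEBNext library construction, per the labels' protocols. Bowtie2, bedtools and mm10 are named in the submitters' processing notes. The sources used here state neither the normalization, nor how reads were assigned, nor any use of strand. For each mature miRNA the authors deposited 1 value on a log2 scale. The scale was inferred from even steps among values whose other library held next to nothing. After conversion to levels, 99.4% of 175 M1 values with an M2 value above 0 but below 1 read were whole multiples of 1 step within 0.1 step. The same held for 95.3% of 129 M2 values of miRNAs listed at 0 in M1 exosomes. Elsewhere values could lie off the steps, as for miR-138-5p at 0.70 units in M1 exosomes. M2 values below 1 read moved with the M1 value, so the libraries were taken as normalized together. Total read numbers were not analysed here. Planned rules for counts or CPM were applied in units of the deposited scale.

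Members and lists were chosen with earlier results of these data known. The text names the 8 members, their other arms and opposite-strand entries, the 5 nearest miRNAs of each compared member, seed sharers and a list of 30 other neuron-linked miRNAs. The arm comparison, the counting intervals and the checks of opposite-strand entries and GC content were added after values were seen. Intervals are exact at 95%, for counting error only, from approximate reads: conditional binomial for a ratio between libraries, and Poisson for the reads of miR-9-3p.

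Hairpins and sequences come from RefSeq on GRCm38.p6, and host genes from GENCODE M21, also on GRCm38, which is mm10. The calls were tested on simulated data. Alternatives covered the minimum level, the added constant, the scaling and the fold line. Python 3.11.15, numpy 2.4.6, pandas 2.3.3, scipy 1.17.1 and matplotlib 3.10.9 were used.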

Additional observations from a re-analysis of the deposited data

How the results depend on the processing

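No paired analysis was possible because the groups hold a single library each, which also leaves nothing to leave out. The count of members past 2-fold towards M1 exosomes, 1 as reported, was 2 with no minimum, which adds miR-9-3p, and 0 with a minimum of 100 units, which removes miR-129-5p. It was also 0 with 10 units added to each level and with a 4-fold line. The number higher in M2 exosomes was 3 or 4 under the alternatives run. Ratios ranged from -3.67 to -3.50 for miR-9-5p, from -1.40 to -1.24 for miR-7a-5p, from -2.60 to -2.35 for miR-7b-5p, and from 0.34 to 0.50 for miR-128-3p. At low levels they moved more, from 0.75 to 1.22 for miR-129-5p and from -4.24 to -1.22 for miR-138-5p. The miR-9 arm ratio became 6.02 in the M1 library and 91.9 in the M2 library with 10 units added. Of 82 alternative values, 0 changed direction, but for many of them this was fixed in advance. Counts and arm ratios have no direction here, and neither the minimum nor an added constant can turn a single member's ratio. Depth limits miR-138-5p, miR-129-5p and miR-9-3p, which rest on few reads.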

Other observations

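miR-9b-3p is 1 of 8 pairs of listed miRNAs that overlap on opposite strands by at least 15 bases with both entries compared. In 7 of the 8 pairs the log2 ratios of the entries lay within 1 of each other, with a median difference of 0.49, against 0.35 for miR-9-5p and miR-9b-3p. The last of these was compared only through its M2 level, where it is high. The lower entry held between 0.67% and 61.7% of its pair. In miR-24-3p with miR-3074-5p it was 7.03% in M1 exosomes and 5.49% in M2 exosomes, near the 5.71% and 5.11% of miR-9b-3p. The use of strand in these counts was not tested.

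GC content differed among the members. miR-9-5p, miR-7a-5p and miR-7b-5p, higher in M2 exosomes, had 34.8%, 34.8% and 33.3%, while miR-128-3p had 47.6% and miR-129-5p 57.1%. miR-138-5p, also higher in M2 exosomes, had 56.5%. The lowest GC content, 31.8%, was that of miR-9-3p, which lay below the minimum and towards M1 exosomes, at a log2 ratio of 1. Over the 293 compared miRNAs with a sequence, the Spearman correlation of GC content and log2 ratio was 0.18, across miRNAs of the same 2 libraries. The 62 below 40% had a median ratio of -0.33, and the 231 others 0.17. The part of GC content in those ratios was not tested.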
